A study of Mus musculus with 2 samples.

Results

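The 10 genes described here are imprinted genes that regulate growth: H19, Igf2, Meg3, Dlk1, Cdkn1c, Grb10, Peg3, Plagl1, Igf2r and Mest. All 10 were among the 28692 genes counted. They were picked by name because H19, Igf2 and Meg3 stood out in earlier results of these data in venous endothelial cells that carry Prox1. This is the transcription factor that specifies lymphatic endothelial cells (LECs). The levels of these genes in those cells are thus given as a description. In the control library H19 and Igf2 were low in such cells, as given below. The data are 1 scRNA-seq library from control and 1 from Flcn iΔEC mice of the C57BL/6 strain at P8. Each library was made from CD31+ cells of the mesentery, pooled from 3 mice per genotype. In Flcn iΔEC mice, floxed Flcn alleles are deleted by Cdh5-BAC-CreERT2, a Cre recombinase driven from an endothelial promoter and switched on by tamoxifen. Per the labels, 4-hydroxytamoxifen (40 µg) was given subcutaneously at P2, 3.5, 5 and 6.5, with no difference between the libraries. The alleles carried by the control mice are not given in the sources used here.

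Imprinted genes are transcribed mainly from the allele of 1 parent. As a rule, the paternally expressed genes promote growth before and shortly after birth, and the maternally expressed genes restrain it. Igf2 encodes a growth factor that acts through the IGF1 and insulin receptors, and Igf2r encodes the receptor that takes Igf2 up for breakdown in lysosomes. H19 and Meg3 are maternally expressed noncoding RNAs. Dlk1 encodes a transmembrane ligand related to those of Notch. Cdkn1c encodes the cyclin-dependent kinase inhibitor p57, and Grb10 an adaptor that dampens insulin and IGF signaling. Peg3 and Plagl1 encode zinc-finger proteins, and Mest encodes a hydrolase of the endoplasmic reticulum. Flcn encodes folliculin, which restrains the transcription factor TFE3.

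The genes lie in few clusters of the genome. On GRCm38, H19 (chr7:142575529-142578143, minus strand) lies 72.6 kb from Igf2 (chr7:142650766-142666816, minus strand), and Cdkn1c (chr7:143458339-143461050, minus strand) lies 792 kb beyond it. Dlk1 (chr12:109452823-109463336) and Meg3 (chr12:109541001-109571726) are both on the plus strand, 77.7 kb apart. The other genes stand alone among the members: Peg3 at chr7:6703892-6730431, Plagl1 at chr10:13060504-13131694, Grb10 at chr11:11930508-12038683, Igf2r at chr17:12682406-12769664 and Mest at chr6:30723547-30748465. The annotation places microRNA genes within H19, Igf2, Meg3 and Mest on the same strand, and Airn and Copg2 on the strand opposite Igf2r and Mest. Reads from genes that overlap on 1 strand cannot always be given to 1 of them.

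The mature microRNAs are shown because these host transcripts are the ones whose levels separate the cell classes below. They were taken from RefSeq on GRCm38.p6, with the seed (bases 2 to 8) in capitals. Those within H19 lie at chr7:142577112-142577133 (miR-675-5p) and chr7:142577078-142577099 (miR-675-3p), and those within Igf2 at chr7:142654968-142654989 (miR-483-5p) and chr7:142654932-142654952 (miR-483-3p). Those within Meg3 lie at chr12:109544588-109544609 (miR-1906), chr12:109563710-109563731 (miR-770-5p) and chr12:109563744-109563765 (miR-770-3p), and those within Mest at chr6:30741314-30741336 (miR-335-5p) and chr6:30741354-30741375 (miR-335-3p). None of these 9 microRNAs shares its seed with another. The libraries count the ends of polyadenylated RNA and do not measure mature microRNAs.
miR-675-5p (H19): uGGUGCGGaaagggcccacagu
miR-675-3p (H19): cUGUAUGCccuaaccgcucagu
miR-483-5p (Igf2): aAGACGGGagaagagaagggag
miR-483-3p (Igf2): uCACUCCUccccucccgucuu
miR-1906 (Meg3): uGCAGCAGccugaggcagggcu
miR-770-5p (Meg3): aGCACCACgugucugggccacg
miR-770-3p (Meg3): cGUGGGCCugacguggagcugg
miR-335-5p (Mest): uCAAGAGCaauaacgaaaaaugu
miR-335-3p (Mest): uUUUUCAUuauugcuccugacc

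Promoter windows of 300 bases, from 250 bases before to 50 after a transcript's start, were in RefSeq for 8 of the 10 genes (15 windows). No window was found for H19 or Cdkn1c. They were searched for CACGTG, the E-box that TFE3 and its relatives bind, which reads the same on both strands. It was found in 2 of the 15 windows, those of Plagl1 and Igf2r, against 7.15% of the 32851 promoters in the table. The Plagl1 (chr10:13090582-13090881, plus strand) and Igf2r (chr17:12769657-12769956, minus strand) windows are printed with the motif in capitals, beside the first Meg3 window (chr12:109540746-109541045, plus strand), in which these letters do not occur. A match is a run of letters and not a binding site.
Plagl1: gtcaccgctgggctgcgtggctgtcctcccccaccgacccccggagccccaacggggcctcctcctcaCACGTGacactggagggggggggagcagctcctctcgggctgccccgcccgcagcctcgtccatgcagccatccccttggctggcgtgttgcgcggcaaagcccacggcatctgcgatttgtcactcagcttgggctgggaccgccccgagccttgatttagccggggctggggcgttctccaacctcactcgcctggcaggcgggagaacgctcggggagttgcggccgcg
Igf2r: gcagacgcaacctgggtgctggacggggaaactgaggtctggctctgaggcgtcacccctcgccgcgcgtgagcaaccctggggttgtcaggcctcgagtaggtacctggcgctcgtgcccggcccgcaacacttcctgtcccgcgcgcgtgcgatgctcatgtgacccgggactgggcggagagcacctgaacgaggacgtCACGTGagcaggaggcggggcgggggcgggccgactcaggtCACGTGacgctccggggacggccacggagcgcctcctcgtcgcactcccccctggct
Meg3: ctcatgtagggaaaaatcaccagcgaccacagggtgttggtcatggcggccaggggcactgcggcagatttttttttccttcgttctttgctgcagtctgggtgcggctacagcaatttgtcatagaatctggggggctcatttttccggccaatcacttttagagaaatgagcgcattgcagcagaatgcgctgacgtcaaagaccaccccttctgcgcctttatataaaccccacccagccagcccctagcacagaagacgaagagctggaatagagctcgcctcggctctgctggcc

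The control library held 6814 cells (64639756 UMIs, median 7283 per cell) and the Flcn iΔEC library 4459 cells (60805779 UMIs, median 8587). A UMI marks 1 captured RNA molecule. The Flcn iΔEC library held 63462 UMIs of Xist against 9 in the control, and 17 UMIs of 4 Y-linked genes against 15535, so the libraries also differ in the sex of the mice, and sex and genotype cannot be told apart. The libraries shared 6 cell barcodes, and 142 control and 37 Flcn iΔEC cells were called doublets. Levels are given as CPM, the UMIs of a gene scaled to 1e6 UMIs of its cells. In endothelial cells Flcn was at 10.2 CPM (143 UMIs) and 9.74 CPM (265 UMIs), a ratio of 0.95 (0.773 to 1.17), but these libraries read transcript ends, where a deleted internal exon can go unseen. With 1 library per genotype no test was possible. All intervals are exact 95% intervals that cover counting error only, and all ratios are Flcn iΔEC over control.

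Endothelial cells were those with at least 2 UMIs of Cdh5, the VE-cadherin gene. The libraries held 566 (control) and 892 (Flcn iΔEC) of them, of which 137 and 144 also held at least 2 UMIs of the blood cell gene Ptprc. LEC-like cells (99 control, 378 Flcn iΔEC) had at least 5 UMIs in total of Pdpn, Lyve1 and Mmrn1 and at least 1 of Prox1. The others were assigned to venous, arterial or capillary cells, or to a Glycam1-high group (34 and 38 cells), by their marker scores, and venous-like cells with at least 2 Prox1 UMIs and at most 2 UMIs of these 3 lymphatic genes formed the Prox1+ venous-like class (40 and 104 cells). This left 81 and 121 venous-like, 118 and 150 arterial-like and 173 and 70 capillary-like cells. In the Glycam1-high control cells, gut genes (Spink4, Defa24, Tff3) were among the leading genes.

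The Prox1+ venous-like cells were checked against venous and lymphatic markers. Nr2f2, a transcription factor of veins and lymphatics that entered the venous score, was at 399 CPM in the control and 310 CPM in the Flcn iΔEC class. The venous receptor gene Aplnr, also in that score, was at 450.2 and 125 CPM. Prox1 was at 87.5 and 344 CPM, so the control class passed the Prox1 gate at a lower level, against 473 and 385 CPM in LEC-like cells. Pdpn had no UMI in either class, and Lyve1 was at 2.82 and 1.96 CPM against 618 and 499 CPM in LEC-like cells, as the gate requires. Of the markers that the gates did not use, Flt4, a lymphatic growth factor receptor gene, was at 7.76 and 35.6 CPM (281 and 318 CPM in LEC-like cells), and Cldn11, a tight junction gene that also marks lymphatic valves, at 81.9 and 278 CPM (219 and 261 CPM). By Cldn11 the Flcn iΔEC class was thus at the LEC-like level and by Flt4 well below it. Venous cells with 0 and 1 Prox1 UMI held Aplnr at 442 and 415 CPM in the control and at 267 and 279 CPM in the Flcn iΔEC library. No venous or valve marker, nor Prox1, was among the leading genes of the class against other endothelial cells, which include venous-like cells. All 6 venous markers were detected in its cells in both libraries. The same 6 genes made up the venous score that assigned the cells, so their detection is no separate check.

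H19 set the Prox1+ venous-like cells of the libraries apart. It was at 570 CPM (547 to 594, 2322 UMIs) in the 104 Flcn iΔEC cells and at 1.41 CPM (0.171 to 5.1, 2 UMIs) in the 40 control cells, a ratio of 404 (112 to 3338) by which the genes were chosen. The Flcn iΔEC value lay above that of the LEC-like cells of its own library, at 405 CPM (393 to 416), and its interval overlapped that of control LEC-like cells at 542 CPM (514 to 571). By cells the class was not above the LEC-like cells of its library. Any H19 UMI was found in 50 of its 104 cells, with a median of 0. The LEC-like cells held H19 in 219 of 378, with a median of 1 UMI. In the control library, H19 was also found in arterial-like (109 CPM, 95.1 to 124) and capillary-like cells (37.9 CPM) but was close to the floor in both venous classes. Few cells carried these values, since 13 of 118 arterial-like cells were at 688 CPM and the other 105 at 5.49 CPM, and 20 of 173 capillary-like cells held at least 2 H19 UMIs. T and B cells, which serve as background, held 0.75 and 1.23 CPM in the control and 2.06 and 1.91 CPM in the Flcn iΔEC library, and erythroid-like cells held 0 UMIs in both.

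**Figure D1:**
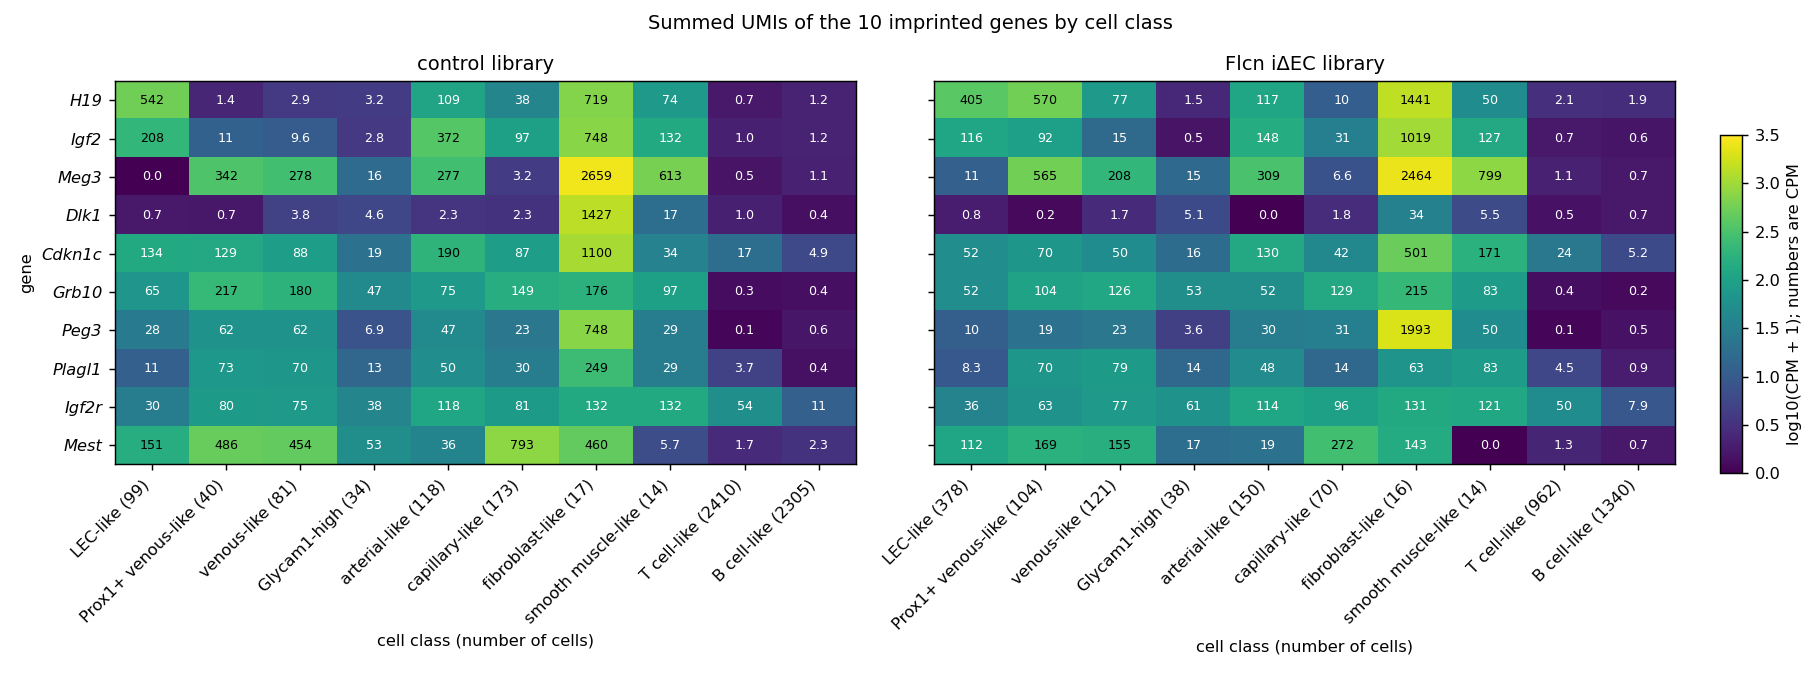
Levels of the 10 imprinted genes in each cell class (columns, with the number of cells) of the control and Flcn iΔEC libraries. Numbers are CPM of summed UMIs and colors their log10(CPM + 1). H19 in Prox1+ venous-like cells stands at 570 CPM for Flcn iΔEC against 1.41 CPM for the control, and Meg3 is high in venous, arterial and mesenchymal classes and at 0 in control LEC-like cells.

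Igf2, the growth factor encoded beside H19, differed in the same direction in these cells at a lower level. It was at 92.1 CPM (83 to 102, 375 UMIs) in Flcn iΔEC and 11.3 CPM (6.45 to 18.3, 16 UMIs) in control Prox1+ venous-like cells, a ratio of 8.16 (4.96 to 14.4). Unlike H19, it stayed under the LEC-like level of 116 CPM (110 to 123) in the same library, and the intervals did not overlap. The highest endothelial Igf2 level was that of arterial-like cells in both libraries, at 372 CPM (346 to 398) and 148 CPM (136 to 161), although in the Flcn iΔEC library their interval overlapped that of smooth muscle-like cells at 127 CPM.

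Meg3 had another distribution from H19 and Igf2. It was present in the control Prox1+ venous-like cells at 342 CPM (312 to 374, 485 UMIs) and in control venous-like cells at 278 CPM (256 to 301). Control LEC-like cells held 0 UMIs of Meg3, with an exact interval of 0 to 1.38 CPM. In the Flcn iΔEC Prox1+ venous-like cells it was at 565 CPM (542 to 589, 2302 UMIs), a ratio of 1.65 (1.5 to 1.83). Among endothelial classes this class had the highest Meg3 level in each library. The order below it was venous-like then arterial-like in the control, with overlapping intervals, and arterial-like (309 CPM) then venous-like (208 CPM) in the Flcn iΔEC library, without overlap.

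Mesenchymal cells also carry H19, Igf2 and Meg3, so their markers were summed in the Prox1+ venous-like cells. Fibroblast-like cells (17 and 16 cells) held H19 at 719 and 1441 CPM, Igf2 at 748 and 1019 CPM and Meg3 at 2659 and 2464 CPM. The 6 fibroblast genes summed to 142 CPM in control Prox1+ venous-like cells, where 4 of the 6 (Col1a1, Pdgfra, Lum and Dcn) were at 0, and to 9.09 CPM in the Flcn iΔEC class, where Pdgfra was at 0. The 6 smooth muscle and pericyte genes summed to 239 and 69.3 CPM, with Myh11 at 0 in both. The part of mesenchymal RNA in the H19, Igf2 and Meg3 levels was not tested.

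Shares of cells showed the same contrast when every cell was thinned to 2000 UMIs. Of control Prox1+ venous-like cells 2.5% (0.0633 to 13.2) held H19, and of those of the Flcn iΔEC library 26.9% (18.7 to 36.5) did, while 5% and 48.1% did without thinning. In T cells, which should lack H19, the thinned shares were 0.251% and 0.313%. Meg3 was detected in 37.5% (22.7 to 54.2) and 52.9% (42.8 to 62.8), intervals that overlapped, and in 77.5% and 90.4% without thinning. The median depth of the Prox1+ venous-like cells was 28601 and 36902 UMIs.

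H19 was not spread evenly over the Flcn iΔEC Prox1+ venous-like cells. At least 2 H19 UMIs were found in 46 of the 104 cells and any H19 UMI in 50, the highest cells held 296 and 187 UMIs, and 11 cells held 62.5% of all H19 UMIs of the class. Meg3 was more even, with at least 2 UMIs in 89 cells, a median of 15 and a highest count of 118. In the control class no cell held more than 1 H19 UMI, although 31 of 40 held at least 2 of Meg3.

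**Figure D2:**
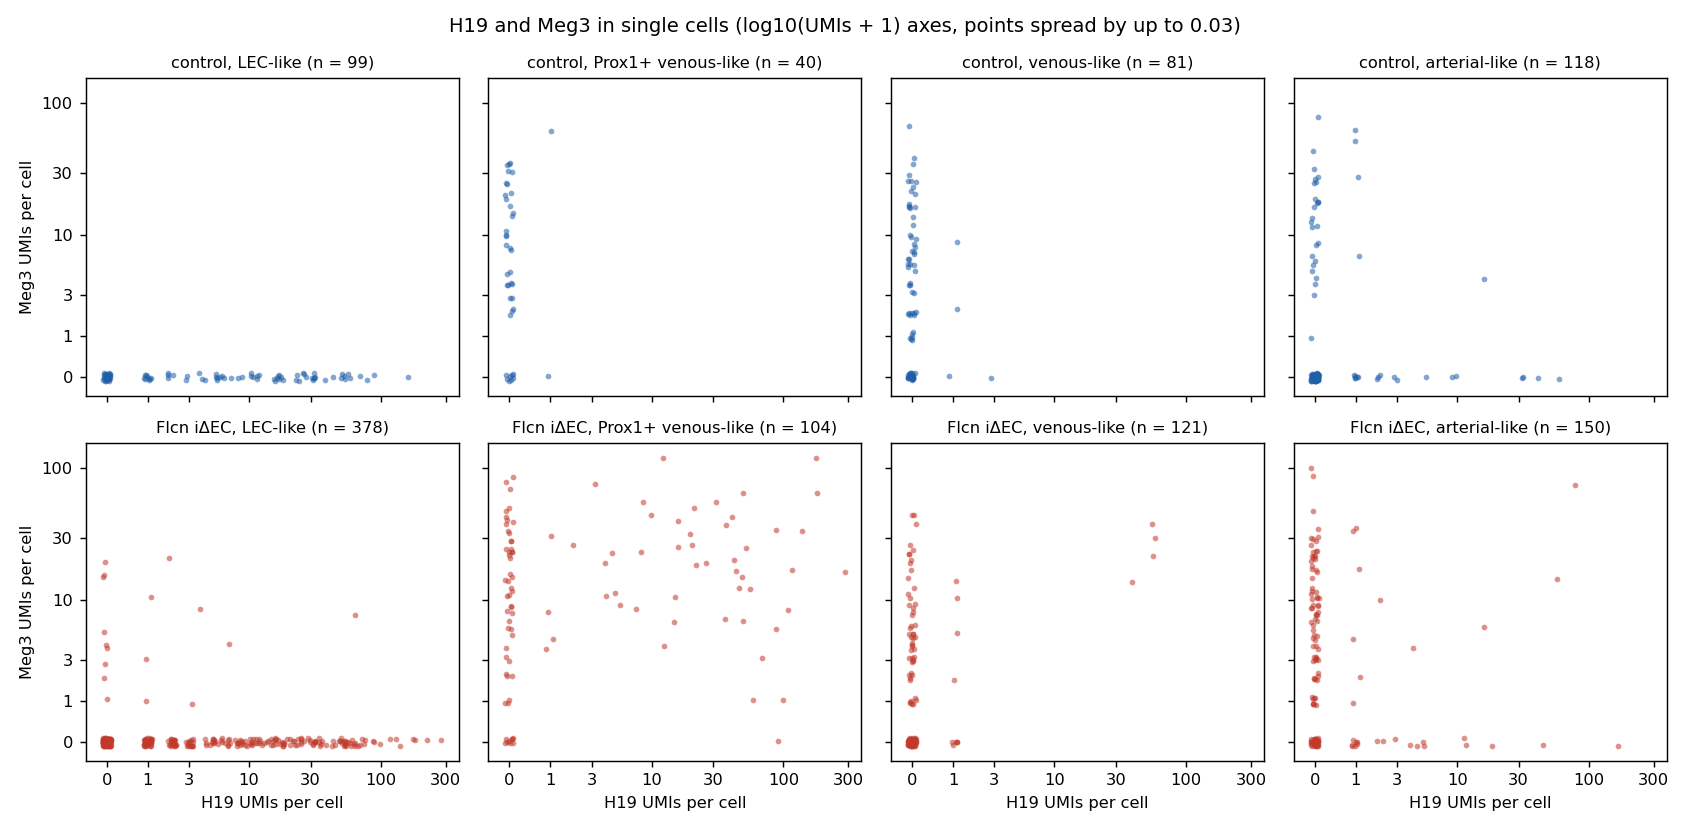
H19 (x axis) against Meg3 (y axis) UMIs per cell on log10(UMIs + 1) axes, with 1 point per cell, for LEC-like, Prox1+ venous-like, venous-like and arterial-like cells of the control (top) and Flcn iΔEC (bottom) libraries. Cells with at least 2 UMIs of both genes number 43 of 104 in the Flcn iΔEC Prox1+ venous-like class and 0 in control LEC-like and Prox1+ venous-like cells.

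H19 and Meg3 were found in the same cells in this class. Of the 46 Flcn iΔEC Prox1+ venous-like cells with at least 2 H19 UMIs, 43 (93.5%) also held at least 2 of Meg3, as did 79.3% of the other 58. Cells with at least 2 UMIs of both genes numbered 0 of 99 control and 4 of 378 Flcn iΔEC LEC-like cells, and 1 of 118 and 5 of 150 arterial-like cells. Where 1 of the genes is rare, few cells can hold both: 17 Flcn iΔEC arterial-like cells held at least 2 H19 UMIs, and 29.4% of these held Meg3, against 52.6% of the others. Igf2 followed H19 closely, since 34 of the 36 cells with at least 2 Igf2 UMIs also held at least 2 of H19, and only 3.45% of the cells with 0 or 1 H19 UMI held 2 of Igf2. The cells with and without H19 were of similar depth, with medians of 34819 and 37035.5 UMIs.

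Cells with at least 2 H19 UMIs differed from the other cells of the Flcn iΔEC class in more than the imprinted genes. Their Igf2 level was 201 CPM against 4 CPM, and Meg3 was at 703 against 454 CPM. Prox1 was at 445 against 263 CPM, Cldn11 at 427 against 157 CPM, and the lymphatic receptor gene Flt4 at 54.3 against 20.4 CPM, whereas the venous gene Aplnr was at 51.6 against 184 CPM. Mmrn1, Lyve1 and Pdpn are held low in all these cells by the gate, and Mmrn1 was at 12.1 against 2.67 CPM. Of the remaining members, Cdkn1c was higher with H19 (86.2 against 57.8 CPM), while Mest (145.5 against 189 CPM), Plagl1 (56.5 against 81.8 CPM) and Igf2r (50.5 against 72.4 CPM) were lower. The fibroblast gene Col1a1 was at 0 in the cells with H19 and at 0.889 CPM in the others. The smooth muscle gene Acta2 was at 33.5 CPM (25.6 to 43, 61 UMIs of which 48 were in 1 cell) in the cells with H19 and at 18.7 CPM (13.5 to 25.2) in the others.

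All venous cells of the Flcn iΔEC library, with and without Prox1, were then ordered by their Prox1 UMIs, with 87 cells at 0, 34 at 1, 25 at 2 to 3, 24 at 4 to 7, 19 at 8 to 15 and 36 at 16 or more. Along these steps H19 was at 63.3, 104, 183, 653, 873 and 626 CPM, and at least 2 H19 UMIs were found in 2, 2, 3, 10, 13 and 20 cells. Meg3 was at 165, 298, 228, 551, 697 and 714 CPM, and Igf2 at 19.7, 5.19, 20.7, 105, 167 and 94.6 CPM. All 3 genes were thus at their higher levels from 4 Prox1 UMIs on. Mest did not follow the steps, at 135, 194, 161.5, 183, 136 and 183 CPM. Aplnr was at 267 CPM in the cells without Prox1 and at 93.9 CPM in those with 16 or more UMIs, and Cldn11 at 49.1 and 405 CPM. The median depth of the steps was between 16710 and 40471 UMIs, and a deeper cell yields more Prox1 UMIs at the same level, so the steps mix level and depth.

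**Figure D3:**
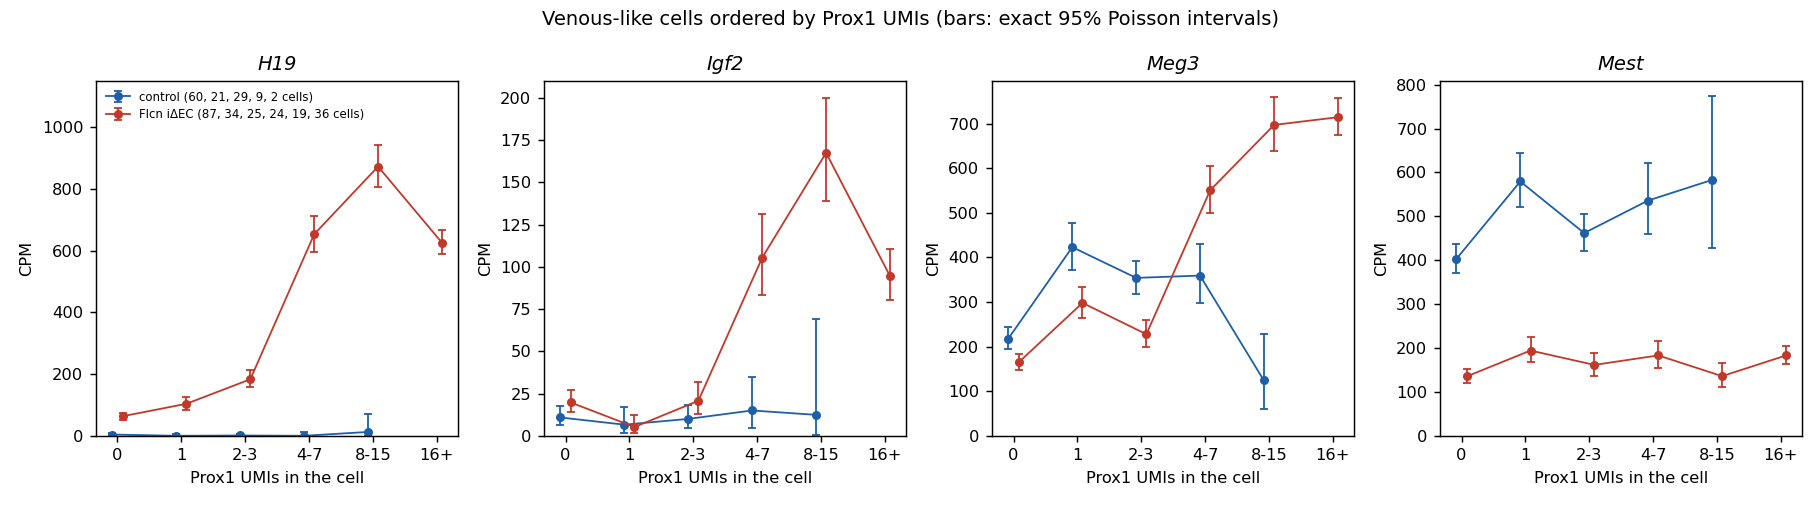
CPM (y axes) of H19, Igf2, Meg3 and Mest in venous cells grouped by their Prox1 UMIs (x axes) in the control (blue) and Flcn iΔEC (red) libraries, with exact 95% Poisson intervals as bars. In Flcn iΔEC cells H19 is at 63.3 CPM without Prox1 and at 873 CPM with 8 to 15 Prox1 UMIs, and in control cells it has at most 6 UMIs in any step.

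The control venous cells could be ordered the same way only up to 15 Prox1 UMIs, with 60, 21, 29, 9 and 2 cells. H19 had 6, 0, 1, 0 and 1 UMIs in these steps, which include 9 cells at 4 to 7 Prox1 UMIs, the step at which 10 of 24 Flcn iΔEC cells held at least 2 H19 UMIs. Meg3 was at 218, 423, 354, 359 and 124 CPM. At that step H19 was at 0 CPM (0 to 11) in the control and 653 CPM (597 to 714) in the Flcn iΔEC library. The 8 to 15 step held 2 control cells and the highest step none.

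H19 in the Flcn iΔEC venous-like cells, which had at most 1 Prox1 UMI, came from 4 cells. The class was at 76.6 CPM (66.9 to 87.3), against 2.88 CPM (1.06 to 6.27) in the control, a ratio of 26.6 (12 to 73.2). These 4 of 121 cells held 216 of the 225 UMIs, with 41 to 60 each, and the other 117 cells were at 3.26 CPM. The 4 cells also held 14 to 40 Meg3 UMIs each and Cldn11 at 293 CPM, but 0 or 1 Prox1 UMI.

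LEC-like cells carried H19 and Igf2 in both libraries. In the control, at least 2 H19 UMIs were found in 57 of 99 cells and at least 2 Igf2 UMIs in 62, and 80.7% of the cells with H19 had Igf2 against 38.1% of those without. In the Flcn iΔEC library, 173 of 378 cells had at least 2 H19 UMIs, with Igf2 in 65.9% of these and 27.3% of the others. Both genes were lower there, with a ratio of 0.747 (0.704 to 0.793) for H19 and 0.559 (0.507 to 0.618) for Igf2. The thinned share of LEC-like cells with H19 was 40.4% (30.7 to 50.7) and 28.8% (24.3 to 33.7), and intervals for the shares overlapped.

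Levels within LEC-like cells varied with Lyve1, a hyaluronan receptor gene that is high in lymphatic capillaries, and with the cell cycle. In cells with at least 10 Lyve1 UMIs (35 control, 131 Flcn iΔEC), H19 was at 781 and 500.4 CPM, against 422 and 299 CPM in cells with at most 1 (52 and 191 cells). Mest was likewise higher with Lyve1, at 255 and 176 CPM against 65.5 and 59.6 CPM. For Cdkn1c the libraries differed: in the control it was at 81.1 CPM with and 219.6 CPM without Lyve1, and in the Flcn iΔEC library at 49.3 and 50.5 CPM. The control cells low in Lyve1 held the lymph node sinus gene Ackr4 at 489 CPM and those of the Flcn iΔEC library at 18.7 CPM. Whether the 2 groups hold different kinds of LEC or the same kind with less Ackr4 was not tested. Each library ratio given for the whole LEC-like class is over cells that differ in Ackr4 in this way.

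Cells with at least 2 UMIs of 4 cell cycle genes (Mki67, Top2a, Cdk1 and Birc5) were lower in H19 and Igf2. In LEC-like cells H19 was at 462 CPM with and 607 CPM without such UMIs in the control, and at 218 and 535 CPM in the Flcn iΔEC library. Cdkn1c, the cell cycle inhibitor, was at 72.5 and 176 CPM in the control and at 44.2 and 57 CPM in the Flcn iΔEC library. Among Flcn iΔEC Prox1+ venous-like cells (41 in each group), H19 was at 417 and 927 CPM and Meg3 at 466 and 813 CPM. Meg3 in the control class was at 260.1 CPM in the 18 cells with and 596 CPM in the 16 without cell cycle UMIs. In each of these groups the level was lower in the cells with cell cycle UMIs.

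Meg3 in Flcn iΔEC LEC-like cells was low but present, at 10.7 CPM (8.91 to 12.7, 126 UMIs). Set against 3 UMIs in the control class, the limit given to a count of 0, this was 9.53-fold higher. The exact interval of the ratio began at 7.64. At least 2 UMIs were found in 14 of 378 cells, of median depth 46159.5 UMIs against 24935.5 in the others. All 14 held Pdpn, 13 held Mmrn1 and 7 held Lyve1. Relative to the other LEC-like cells they were low in H19 (108 against 425 CPM), Igf2 (17.3 against 123 CPM) and Mmrn1 (449 against 881 CPM) and high in Htra1, a secreted protease gene (71.9 against 7.53 CPM). Col1a1 had 0 UMIs in them, the arterial gene Gja5 was seen in 1 cell, and the venous gene Aplnr, seen in 2 cells, was at 16 CPM against 2.54 CPM in the other LEC-like cells.

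In arterial-like cells H19 and Igf2 were lower where Meg3 was present. In the control, the 30 cells with at least 2 Meg3 UMIs held H19 at 24.7 CPM and Igf2 at 249 CPM, against 164 and 452 CPM in the other 88. In the Flcn iΔEC library, the 75 cells with Meg3 held H19 at 73.9 CPM and Igf2 at 114 CPM, against 186 and 201 CPM in the other 75. Few cells carried the H19 levels, and the median was 0 UMIs in each group. Any H19 UMI was found in 5 control cells with Meg3 and 18 without, and in 10 and 20 Flcn iΔEC cells. The cells with Meg3 were deeper, with medians of 18787.5 against 11604 UMIs in the control and 23274 against 15606 in the Flcn iΔEC library. The cells with Meg3 also held more smooth muscle RNA, with Acta2 at 604 against 46.3 CPM in the control and 569 against 257 CPM in the Flcn iΔEC library, and more Htra1 (2273 against 978 CPM in the control). The part of such RNA in their Meg3 level was not tested. The fibroblast gene Col1a1 was at 50.7 against 3.09 CPM in the control, and at 0.432 and 0 CPM in the Flcn iΔEC library. The whole fibroblast list, which was not split by Meg3, summed to 148 and 80.5 CPM in the 2 arterial-like classes. The control cells without Meg3 held Prox1 at 46.3 CPM (60 UMIs in 7 cells) and Cldn11 at 54 CPM (70 UMIs in 3 cells). Those with Meg3 held 0 UMIs of both. In the Flcn iΔEC library Prox1 was at 16 CPM with and 17 CPM without Meg3, and Cldn11 at 15.6 and 26.5 CPM. The part of cells with lymphatic genes in the H19 levels was not tested.

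Dlk1, the other gene of the Meg3 cluster, was not a transcript of endothelial cells. It was at 5.1 CPM or less in every endothelial class of both libraries, and at 0 UMIs in Flcn iΔEC arterial-like cells with Meg3 at 309 CPM. It was found in mesothelial-like cells, at 1502 CPM (4 cells) and 2314 CPM (3 cells), together with Meg3 at 1689 and 2921 CPM. In fibroblast-like cells it was at 1427 CPM (292 UMIs, 17 cells) in the control and 33.7 CPM (8 UMIs, 16 cells) in the Flcn iΔEC library, a ratio of 0.0236 (0.0101 to 0.0471) over few cells.

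Cdkn1c was lower in the Flcn iΔEC library in 5 of the 6 endothelial classes. In the other, the Glycam1-high cells, the interval of its ratio held 1 (0.844, 0.516 to 1.37). Cdkn1c had a ratio of 0.385 (0.337 to 0.44) in LEC-like, 0.546 (0.452 to 0.661) in Prox1+ venous-like, 0.57 (0.455 to 0.712) in venous-like, 0.686 (0.6 to 0.784) in arterial-like and 0.482 (0.365 to 0.629) in capillary-like cells, from 134, 129, 87.8, 190 and 86.5 CPM in the control. The LEC-like ratio is over cells that differ in Ackr4 as given above, and the part of this in the ratio was not tested. Among cells with at least 10 Lyve1 UMIs Cdkn1c was at 81.1 and 49.3 CPM, less than 2-fold apart. In fibroblast-like cells, which are not endothelial, the ratio was 0.456, and in T cells it was 1.4 (1.17 to 1.67), from 17.2 to 24.2 CPM. Smooth muscle-like cells (14 in each library) went the other way, at 34.4 and 171 CPM, a ratio of 4.97 (2.04 to 14.6) from 6 and 31 UMIs. Grb10 had a ratio of 0.48 (0.414 to 0.558) in Prox1+ venous-like cells, from 217 to 104 CPM, and one of 0.861 (0.729 to 1.01) in capillary-like cells, where the interval held 1. In T cells Grb10 was at 0.3 and 0.363 CPM.

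Mest was high in capillary-like and venous cells and low in arterial-like cells. In the control it was at 793 CPM in capillary-like, 486 CPM in Prox1+ venous-like and 454 CPM in venous-like cells, and at 36.4 CPM in arterial-like cells. Without cells holding at least 2 collagen or Ptprc UMIs, capillary-like cells were at 944.6 CPM and venous-like cells at 980.1 CPM (31 cells), so the order at the top depends on these cells. In the Flcn iΔEC library capillary-like cells still ranked highest and arterial-like cells near the lowest, at 272 and 19.3 CPM. The ratio lay between 0.34 and 0.349 in the capillary-like and both venous classes, at 0.53 in arterial-like and at 0.738 (0.659 to 0.827) in LEC-like cells. Fibroblast-like cells had a ratio of 0.312 as well. The thinned share of Prox1+ venous-like cells with Mest was 55% (38.5 to 70.7) and 25% (17 to 34.4).

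Peg3, Plagl1 and Igf2r differed in how they ranked and in how far the libraries were apart. Peg3 was lower in Flcn iΔEC LEC-like (10.4 against 27.7 CPM, ratio 0.377), Prox1+ venous-like (19.4 against 62.1 CPM, 0.312) and venous-like cells (23.1 against 62.4 CPM, 0.371), yet higher in fibroblast-like cells (1993 against 748 CPM, 2.66). Plagl1 was at 73.4 and 70.5 CPM in Prox1+ venous-like cells, a ratio of 0.96 (0.765 to 1.21). In LEC-like cells it was at 10.9 and 8.32 CPM, so venous cells exceeded LECs in both libraries. Igf2r, the clearance receptor, was present in every endothelial class, between 29.6 and 118 CPM in the control and between 35.7 and 114 CPM in the Flcn iΔEC endothelial classes, and it was also found in T cells at 53.6 and 50.1 CPM. Its ratio interval held 1 in LEC-like, venous-like, arterial-like and capillary-like cells, and the ratio was 0.778 (0.622 to 0.98) in Prox1+ venous-like and 1.61 (1.2 to 2.16) in Glycam1-high cells.

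**Figure D4:**
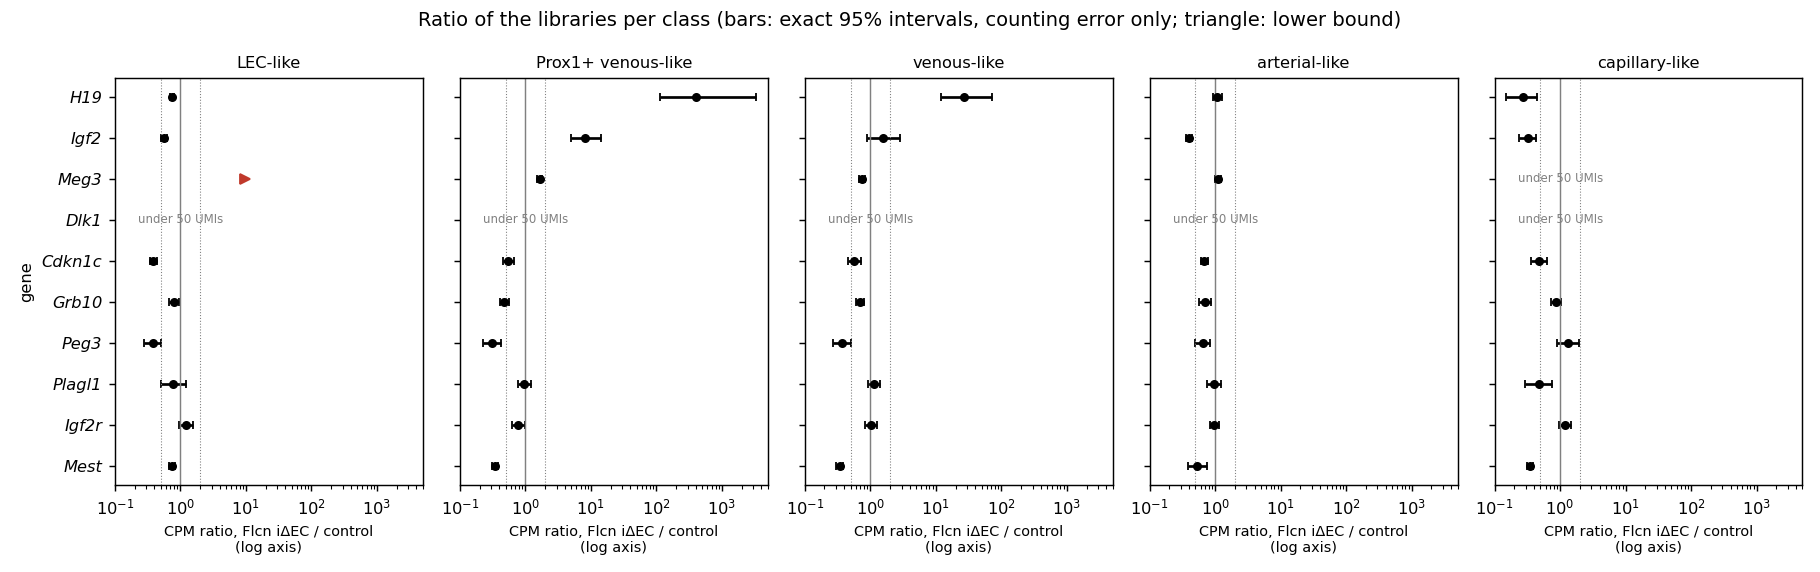
Ratio of CPM, Flcn iΔEC over control (log x axes), of each member in 5 endothelial classes, with exact 95% intervals from counting error and dotted lines at 2-fold. A triangle is a bound set against 3 control UMIs where the control held 0. H19 lies at 404 in Prox1+ venous-like and 0.267 in capillary-like cells, and Mest and Cdkn1c lie below 1 in all 5 classes.

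The members past 2-fold were counted beside all genes with at least 50 summed UMIs in a class. In LEC-like cells 9 members reached this count. Cdkn1c and Peg3 were at least 2-fold lower and Meg3 at least 2-fold higher in the Flcn iΔEC library, where 6.72% of the 10915 genes were lower and 3.75% higher by as much. In venous-like cells 9 members reached it, Peg3 and Mest were lower (3.6% of 8702 genes) and H19 was higher (2.38%), the latter through the 4 cells described. In arterial-like cells 9 reached it and Igf2 was lower (4.7% of 8784 genes), and none was higher (2.76%). Without cells holding at least 2 collagen or Ptprc UMIs, Meg3 there was at 77.5 and 217 CPM and past 2-fold, and Grb10 and Mest were past 2-fold lower beside Igf2. Igf2 there had a ratio of 0.398 (0.356 to 0.444), whereas its neighbor H19 had one of 1.08 (0.921 to 1.27). Capillary-like cells stood out by count, with 5 of 8 members lower (H19, Igf2, Cdkn1c, Plagl1 and Mest) against 4.15% of 8562 genes, and none higher against 2.23%, and without cells holding collagen or Ptprc UMIs Plagl1 dropped out and 4 were lower. Both genes of the H19 cluster were lower there, H19 from 37.9 to 10.1 CPM (0.267, 0.15 to 0.446) and Igf2 from 97.2 to 31 CPM (0.319, 0.233 to 0.429). Few cells carry the H19 ratio, since 20 of 173 control and 3 of 70 Flcn iΔEC cells held at least 2 H19 UMIs. Medians of the members' log2 ratios were -0.42, -0.42, -0.52 and -1.06 in these 4 classes, and those of all genes were -0.17, -0.06, -0.14 and -0.07. Only endothelial classes with at least 50 cells in each library were counted. This left out Prox1+ venous-like cells (40 in the control), where the members were also chosen, and Glycam1-high cells (34 and 38).

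The other imprinted genes past 2-fold were counted beside the same shares of all genes. Those shares were 6.72% lower and 3.75% higher in LEC-like, and 3.6% and 2.38% in venous-like cells. They were 4.7% lower and 2.76% higher in arterial-like, and 4.15% and 2.23% in capillary-like cells. Of 59 listed, 57 were among the genes counted. In LEC-like cells 31 reached the minimum, of which Slc38a4, an amino acid transporter gene, was higher (36.7 and 98.4 CPM, ratio 2.68) and Nnat and Gatm were lower (ratios 0.334 and 0.348). In venous-like cells 21 reached it, with none past 2-fold. In arterial-like cells 24 reached it and Ppp1r9a was lower (34 and 10 CPM), and in capillary-like cells 22 reached it and Blcap was lower (19.8 and 9.53 CPM). The medians were -0.16, -0.30, -0.23 and -0.08 on the log2 scale. Kcnq1ot1, the noncoding RNA of the Cdkn1c cluster, was at 234 and 132 CPM in LEC-like cells (0.562) and at 243 and 143 CPM in venous-like cells (0.589), the same direction as Cdkn1c, but it was also lower in B cells (0.674). Gnas, which encodes a G protein subunit, was at 4259 and 2246 CPM in LEC-like cells (0.527) and at a ratio of 1.03 in B cells. Cd81 was at 471 and 534 CPM and H13 at 125 and 80.2 CPM in LEC-like cells, and Ndn at 64.8 and 44.9 CPM in venous-like cells. Tssc4, Nap1l4, Sgce, Commd1, Ube3a and Phactr2 also reached 50 CPM in a class, without passing 2-fold in any of these 4.

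The genes that bind or carry the Igf2 signal differed by cell class. Of 14 listed, 10, 7, 8 and 8 reached the minimum in LEC-like, venous-like, arterial-like and capillary-like cells. Of all genes, 6.72%, 3.6%, 4.7% and 4.15% were lower past 2-fold in these classes, and 3.75% were higher in LEC-like cells. The LEC-like ratios are over cells that differ in Ackr4 as given above, and the part of this in the ratios was not tested. Igf1, the related growth factor, was lower in LEC-like cells (241 and 52 CPM, ratio 0.216), venous-like cells (0.493) and capillary-like cells (0.407). Igfbp3, which encodes an IGF binding protein, was higher in LEC-like cells (4.49 and 23.1 CPM) and lower in arterial-like cells (928 and 187 CPM). Also lower past 2-fold were Irs2 in LEC-like, Igfbp5 and Igfbp7 in arterial-like (832 and 135 CPM for Igfbp7), and Igfbp4 in capillary-like cells (459 and 225 CPM). The receptor gene Igf1r was at 107 and 92.7 CPM in LEC-like and at 68.2 and 102 CPM in venous-like cells.

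Levels over the 17 groups of at least 50 cells (classes of both libraries together) were used to find the genes most like H19, Igf2 and Meg3 among 10809 genes, by Pearson's r of log2(CPM + 1). These groups share libraries and depth, so r is a description. They include blood cells such as T and B cells, where H19 and Igf2 were at few CPM, so r also holds the contrast of endothelial and blood cells. The control Prox1+ venous-like class (40 cells, H19 at 1.41 CPM) was too small to be among them. Prox1 also entered the gates of the LEC-like and Prox1+ venous-like classes, so its r with H19 is not independent of the gates. For H19 they were Arhgap42, Cpne2, Hoxd9, Prox1 and Clca3a1 (0.94 to 0.92), for Igf2 they were Hoxd4, Unc5b, Col18a1, Hoxd8 and Tmod2 (0.97 to 0.95), and for Meg3 they were Ptgis, Scx, Myof, Mfap5 and Htra1 (0.91 to 0.88). H19 and Igf2 had an r of 0.88. Over these endothelial and blood groups Meg3 was closer to Plagl1 (0.76) than to H19 (0.45), although Meg3 and H19 are both maternally expressed noncoding RNAs. Likeness among endothelial classes alone was not computed.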

How the data were processed

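CD31+ cells were isolated from the mesentery with magnetic beads, and droplet libraries of transcript ends were sequenced. The authors aligned reads and removed low-quality sequences and PCR duplicates with Cell Ranger 3.0 (mm10, per the labels), and deposited raw UMI counts per gene and cell. The members, gene lists and classes were chosen with earlier results of these data known. The paper's clusters were not rebuilt; cells were assigned by marker UMIs, with marker scores standardised over both libraries, and no cell was removed. An endothelial barcode with at least 100 hemoglobin UMIs was left unassigned, a choice made after seeing the data. The depth was 64639756 and 60805779 UMIs. Counts were summed per class and library and scaled to CPM, with exact Poisson, conditional and Clopper-Pearson 95% intervals (scipy 1.17.1, numpy 2.4.6, pandas 2.3.3, Python 3.11.15). PCR duplicates are collapsed by UMIs, and intervals cover counting error only. A count of 0 was given the limit of 3 counts. Ratios were counted at 2-fold with at least 50 summed counts, and their computation was tested on simulated data. Shares were thinned to 2000 UMIs (1 draw). Doublets were called with Scrublet in scanpy 1.11.5. Named were all 10 members, Prox1, Flcn, listed imprinted genes with at least 50 CPM in a class of at least 50 cells, and the 5 genes most like H19, Igf2 and Meg3; other genes were named after their values were seen. Alternatives changed the Cdh5 and Prox1 gates, cell filters, doublets, thinning, scaling, fold and marker-bearing cells. Positions are from GENCODE on GRCm38, sequences from RefSeq on GRCm38.p6. Figures were drawn with matplotlib 3.10.9.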

Additional observations from a re-analysis of the deposited data

Results flagged for a closer look

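The Flcn iΔEC over control ratio of H19 ran in opposite directions in different endothelial classes, and the difference between the classes was not tested, since there was 1 library per genotype. It was 26.6 in venous-like, 0.747 in LEC-like and 0.267 in capillary-like cells. In venous-like cells 216 of the 225 UMIs lay in 4 cells. In capillary-like cells at least 2 H19 UMIs were found in 20 of 173 control and 3 of 70 Flcn iΔEC cells. The ratio of Meg3 also differed in direction, again without a test. It was 1.12 in arterial-like and 0.75 in venous-like cells. In LEC-like cells, where the control held 0 UMIs, it was 9.53 when set against 3 control UMIs, and its exact interval began at 7.64. Without cells holding at least 2 collagen or Ptprc UMIs, the log2 ratio of Meg3 in arterial-like cells was 1.48, from 0.16.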

How the results depend on the processing

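No paired analysis was possible because each genotype has 1 library. No direction of a library ratio past 2-fold turned under any alternative. In Flcn iΔEC Prox1+ venous-like cells, H19, Igf2 and Meg3 (570, 92.1 and 565 CPM) were at 479, 76.4 and 515 CPM with at least 1 Prox1 UMI (136 cells), at 691, 114 and 670.3 CPM with at least 4 (79 cells), at 729, 118 and 723 CPM when scaled without mitochondrial, ribosomal protein and hemoglobin genes, and at 651, 107 and 622 CPM without cells holding at least 2 collagen or Ptprc UMIs (85 cells left, and 15 of 40 in the control). With at least 1 Cdh5 UMI, H19 was at 610.1 CPM. The members past 2-fold numbered 3 in LEC-like, 3 in venous-like, 1 in arterial-like and 5 in capillary-like cells. Past 4-fold they were 1, 1, 0 and 0, and past 1.5-fold 5 in venous-like and 3 in arterial-like cells. With at least 1 Cdh5 UMI there were 2 in arterial-like cells. Removing cells with collagen or Ptprc UMIs gave 4 in arterial-like cells (Meg3 higher, Igf2, Grb10 and Mest lower): Meg3 was then at 77.5 CPM in the control (88 cells left) and 217 CPM in the Flcn iΔEC library, from 277 and 309 CPM. In capillary-like cells it left 4, without Plagl1. It also moved Mest in control venous-like cells from 454 to 980.1 CPM (31 cells left) and turned the log2 ratio of Plagl1 there, which was not past 2-fold, from 0.17 to -0.48. Thinning to 1000 UMIs or none moved many shares of cells, which depend on depth. The small classes limit the precision, with 40 control Prox1+ venous-like cells.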

Other observations

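Meg3 was also high in a few cells outside the endothelial, mesenchymal and blood classes. In glia-like cells, 4 in the control library, it was at 1302 CPM. In epithelial-like cells it was at 268 CPM in the control (675 UMIs in 31 of 67 cells) and 102 CPM in the Flcn iΔEC library, where 437 UMIs lay in 4 cells and the highest cells held 248 and 103. Cdkn1c in these epithelial-like cells was at 321 and 35.8 CPM. Counts of 569 and 518 Meg3 UMIs were found in 2 Flcn iΔEC cells without Cdh5 UMIs that were assigned to no class and held 153 and 110 UMIs of Tubb3, a tubulin gene of neurons. In a group of control cells led by Il22 and Tmem176b, 83 of 111 Meg3 UMIs and 39 of 66 Dlk1 UMIs were found in 1 cell each.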
